A study of Mus musculus with 14 samples.

Results

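Gene expression before transcription was blocked was compared between wild-type (WT) and METTL14 R255K mouse embryonic stem cells (mESCs), with 1 RNA-seq library per genotype, which are 2 of the 14 samples of the series. The cells are E14Tg2a mESCs grown on gelatin in serum with the cytokine LIF. R255K cells carry a knock-in made with CRISPR-Cas9 and a donor that turned the AGA codon of the targeted arginine of Mettl14 into AAA, a lysine codon, and the line was grown from an isolated colony, so that the mutation and the history of that colony cannot be told apart here. Both libraries are the 0 h points of a series in actinomycin D (5 µg/ml), a drug that blocks transcription, and no rate of RNA decay is described. Members were all genes whose FPKM (read count scaled by exon length and by the summed counts of the library) averaged at least 1 over the 2 libraries, which left 11869 of the 52459 genes in the tables. The value followed for each was the log2 ratio of FPKM + 1, R255K over WT, and a gene is called higher or lower where that ratio reached 1 or −1, a 2-fold difference. The added 1 understates the difference of genes with low values, so ratios named in words as a fold are those of FPKM with nothing added, with an exact conditional binomial interval at the 95% level that covers counting error only.

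METTL14 is the RNA-binding partner of METTL3 in the nuclear complex that writes N6-methyladenosine (m6A) on messenger RNA, with WTAP and other subunits, and PRMT1 is an enzyme that methylates arginines of other proteins. In mESCs, m6A marks many transcripts of pluripotency and developmental regulators. Naive mESCs express a set of transcription factors around Klf4, Esrrb and Tfcp2l1, and cells that move on towards the postimplantation epiblast (formative and then primed pluripotency) lose those factors and gain Otx2, Pou3f1 and Dnmt3b while Pou5f1 and Sox2 persist. Imprinted genes are expressed from the allele of 1 parent, under DNA methylation that embryonic stem cell cultures can lose or gain.

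With 1 library a genotype there is no replicate spread, no test was possible, and each difference is one between 2 libraries. The summed counts were 17428469 in WT and 15642076 in R255K, 21261 and 21560 genes had a count, and mitochondrial transcripts took 0.754% and 0.570%. Reads carried no molecular identifiers, so the intervals are the narrowest that counting allows. Both libraries had the expression of embryonic stem cells: all 10 stem cell markers were measured, at 65.7 to 878 FPKM in WT and 70.7 to 593 in R255K. Their FPKM summed to 3131 and 2659. Markers of other cell types were low, and their sums differed as follows. Fibroblast markers, of which 1 of 6 was measured, summed to 1.66 FPKM in WT and 5.96 in R255K. Most of both sums came from the measured marker, Thy1, at 1.55 and 4.01 FPKM. Lum was at 0 in both libraries, Dcn at 2 counts in both and Col1a1 at 9 and 150 counts. Trophoblast markers, of which 0 of 3 were measured, summed to 0.0508 and 1.70 FPKM, with Tpbpa at 0 in both and Cdx2 at 2 and 59 counts. Mesoderm markers, of which 0 of 4 were measured, summed to 1.02 and 2.91 FPKM, with T at 11 and 45 counts. Endoderm markers, 2 of 4 measured, summed to 5.37 and 5.16 FPKM, and all 3 ectoderm markers to 16.5 and 9.27 FPKM. Within each of these sums the markers went in opposite directions. Gata4 had 228 counts in WT and 106 in R255K and Gata6 78 and 56, while Foxa2 had 12 and 62 and Sox17 27 and 47. Of the ectoderm markers, Sox1 had 1130 and 133 counts, Nes 206 and 641 and Pax6 244 and 206. The part of other cell types in the differences below was not tested, and in bulk RNA fewer cells of a type and less RNA per cell cannot be told apart.

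Of the 11869 genes, 764 (6.44%) were at least 2-fold higher in R255K cells and 703 (5.92%) at least 2-fold lower. The median log2 ratio was 0.05, with quartiles at −0.37 and 0.41. At least 4-fold differences were seen in 78 genes higher and 44 lower, and at least 8-fold in 9 and 2. Of the 764, 259 had under 1 FPKM in WT, and of the 703, 141 had under 1 FPKM in R255K. Such genes passed the level limit only through the library in which they were high, and so had to differ. Counts of called list members below are to be read with that in mind, and against the shares of 6.44% and 5.92% among all genes. At the edges of the rule, Chst12 had 1.00 and was called while Zkscan17, at 0.9987, was not, and BC002059 (217 and 82 counts) was called at the limit while Rock1, at −0.9981, was not. The balance of the directions depended on scaling: with size factors of DESeq2 the median moved from 0.05 to −0.07, and 578 genes were higher and 935 lower. Ratios below are therefore best read against 0.05, the median of all genes.

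**Figure D1:**
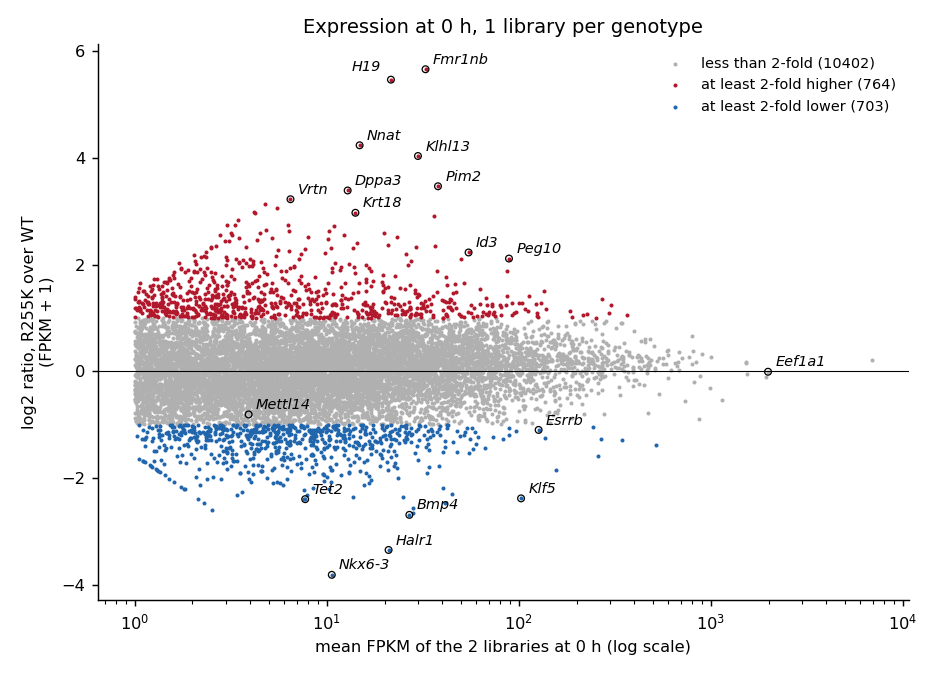
Log2 ratio of FPKM + 1 (R255K over WT, vertical axis) against mean FPKM of the 2 libraries at 0 h (horizontal log axis), 1 point per gene for 11869 genes. Red points are the 764 genes called higher and blue points the 703 called lower, and Fmr1nb, H19, Nnat and Klhl13 lie above 4.

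The targeted gene itself was present in both libraries, as a codon change leaves it. Mettl14 had 681 counts (5.27 FPKM) in WT and 299 counts (2.58 FPKM) in R255K, a ratio of 0.489 (0.426 to 0.561) and a log2 ratio of −0.81, short of the call. Its exons have a GC content of 41.8%, and AT-rich genes as a class were lower in R255K. With the trend on GC content removed the ratio was −0.37, and in separate libraries at 4 h and 8 h of actinomycin D it was −0.53 and −0.39. The counts cannot check the labels, because gene-level counts do not show the base that was changed. The reference sequence around the codon, shown to place the only designed difference between the genotypes, lies in the coding sequence of Mettl14 at chr3:123372635-123372661 (mm10, minus strand, written 5′ to 3′) with the targeted AGA codon (R255K) of the 456 codons in capitals.
Mettl14 targeted codon: tggggttacagaAGAtgtgaagatatt

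No gene of the m6A writer complex was called on FPKM + 1, although the FPKM of Mettl14 with nothing added was past 2-fold lower. Of 12 writers and associated subunits, Mettl14 among them, 0 were called higher and 0 lower. Their median was −0.23 and became 0.04 once the GC trend was removed. Mettl3, the catalytic subunit, was at 0.13, Virma at 0.06 and Wtap, which anchors the complex in nuclear speckles, at −0.42. Mettl16, a separate m6A methyltransferase whose gene is on chromosome 11, was at 0.62. Among 15 readers and erasers 3 were lower. Igf2bp3, an RNA-binding protein that reads m6A, had 1171 counts in WT and 263 in R255K (−1.59), and stayed near that at 4 h (−1.55) and 8 h (−1.74). Fmr1 (−1.41) and the cytoplasmic reader Ythdf3 (−1.15) did not keep their ratio, since their 8 h values were 0.58 and 1.14. The eraser Alkbh5 and the reader Igf2bp1, both on chromosome 11, were at 0.65 and 0.68. None of 9 measured protein arginine methyltransferases was called; Prmt1 was at 0.33 and Prmt9, at 0.92, came nearest.

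Of the 15 genes with the highest ratios, 7 had under 10 counts in WT. Fmr1nb (chrX:68761839-68804567, mm10), a cancer-testis type gene beside Fmr1, had 5 counts (0.306 FPKM) in WT and 954 counts (65.1 FPKM) in R255K, a log2 ratio of 5.66 and a ratio of 213 (90.8 to 656). H19 (chr7:142575529-142578143), the imprinted noncoding RNA downstream of Igf2, had 0 counts in WT and 1603 counts (43.2 FPKM) in R255K. Against a floor of 3 counts for the WT library, H19 was at least 595-fold higher. Nnat (chr2:157560078-157562522), an imprinted gene for a small membrane protein, had 19 counts (0.596 FPKM) and 832 counts (29.1 FPKM), a ratio of 48.8 (31.0 to 81.5). The interval of Nnat lies wholly below that of Fmr1nb. Klhl13 (chrX:23219271-23365082), a substrate adaptor of a ubiquitin ligase, stood at 189 and 3805 counts (2.55 and 57.2 FPKM), a ratio of 22.4 (19.4 to 26.1). Pim2, an X-linked serine/threonine kinase, went from 266 counts in WT to 3082 in R255K, a ratio of 12.9 (11.4 to 14.7). Dppa3, a maternal and germ line factor that limits DNA methylation, had 22 counts (1.42 FPKM) and 339 counts (24.3 FPKM), a ratio of 17.2 (11.2 to 27.8), an interval that overlaps those of Klhl13 and Pim2.

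The rest of the 15 highest were Vrtn (28 and 706 counts, log2 ratio 3.23), Plac8 (5 and 234, 3.14), Krt19 (13 and 310, 3.06), Pnma5 (9 and 403, 2.99), Fetub (6 and 247, 2.97), Krt18 (59 and 565, 2.97), Tex19.1 (251 and 1888, 2.91), Myl9 (2 and 124, 2.83) and Tmem54 (1 and 115, 2.75). Krt18 and Krt19 encode keratins of simple epithelia, and Tex19.1 represses retrotransposons in germ cells and placenta. For the lowest counts in WT the interval is wide: Tmem54 had a ratio of 128 (22.5 to 5104) and Myl9, a myosin light chain of smooth muscle, 69.1 (18.7 to 577). The 4 h and 8 h time points are separate libraries, and all 15 were past 2-fold in the same direction at both times. Chromosome X held 4 of the 15 and chromosome 11 held 2.

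At the other end, the lowest ratio was that of Nkx6-3 (chr8:23153269-23158948), a homeobox factor, with 808 counts (20.7 FPKM) in WT and 19 counts (0.543 FPKM) in R255K, a level 38.2-fold (24.3 to 63.7) lower. Halr1 (chr6:52102949-52113684), a long noncoding RNA next to the Hoxa cluster, had 668 and 45 counts and was 13.3-fold (9.85 to 18.4) lower. Bmp4 (chr14:46383520-46390669), a secreted BMP ligand that supports naive self-renewal with LIF, had 1837 counts (47.4 FPKM) and 226 counts (6.50 FPKM), 7.30-fold (6.35 to 8.41) lower. Lgals3, a galectin, had 1587 and 202 counts and was 7.05-fold lower. Grb10 (chr11:11930508-12038683), an imprinted adaptor that restrains insulin and IGF signalling, had 7724 counts (48.8 FPKM) and 1056 counts (7.43 FPKM), 6.57-fold (6.16 to 7.01) lower. Among chromosome 11 genes, 20 in all were called lower, so Grb10 runs opposite to most of its chromosome. Apol9b had 123 counts in WT and 0 in R255K, at least 36.8-fold lower against the floor of 3 counts.

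The remaining lowest were Sept1 (3393 and 513 counts, log2 ratio −2.47), Tet2 (4019 and 471, −2.40), Sox1 (1130 and 133, −2.39), Klf5 (5195 and 873, −2.38), Fignl2 (1843 and 267, −2.36), Mras (3779 and 600, −2.35) and Zmat4 (918 and 60, −2.33), plus Snord110 (6 and 0 counts) and Gm22121 (4 and 0 counts). Those last 2 are short noncoding RNAs with too few reads to place, and Snord110 was at least 1.80-fold and Gm22121 at least 1.197-fold lower. Tet2 oxidises 5-methylcytosine, and Klf5 is a Krüppel-like factor of naive cells. All 15 kept a negative ratio at 4 h and 8 h, but 7 of 15 stayed past 2-fold, against 15 of 15 at the high end. Across all genes, 1284 were past 2-fold higher and 256 past 2-fold lower at 4 h, and 2258 and 292 at 8 h. Grb10 (−2.60 and −2.54), Lgals3 (−3.25 and −3.39) and Sept1 (−3.14 and −3.21) held or widened their difference, whereas Klf5 was at −0.86 and −0.34 and Tet2 at −1.16 and −0.43.

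Naive pluripotency genes were lower in R255K cells as a group. Of the 20 on the list, all measured, 9 (45.0%, against 5.92% of all genes) were lower and 1, Dppa3, was higher. The median was −0.99 and 19 of 20 ratios were below 0. The transcription factors Klf5, Tbx3, Tfcp2l1, Klf4, Nr0b1 and Esrrb were among the 9, with Tet2, the secreted protein Spp1 and the AKT coactivator Tcl1. Esrrb (chr12:86361117-86521628) had 18281 counts (174 FPKM) in WT and 7608 (80.4 FPKM) in R255K, 2.157-fold lower. Tbx3 had 3113 and 640 counts (−1.96), Tfcp2l1 9816 and 2484 (−1.77) and Klf4 4220 and 1547 (−1.27). Not every naive gene was low: Zfp42 was at −0.28, Klf2 at −0.03, Fgf4 at −0.08 and Stat3, the transcription factor downstream of LIF, at −0.16. The list median was −1.17 with the GC trend removed, but −0.38 at 4 h and −0.07 at 8 h, and 7 of the 9 were below 0 in all 3 pairs, Klf4 and Esrrb not among them.

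Formative and primed genes were called in 1 direction. Of 15 listed, 14 were measured and 9 (64.3%, against 6.44% of all genes) were higher, 2 of them under 1 FPKM in WT, and 0 lower, with a median of 1.18 that was 1.08 with the GC trend removed. Pou3f1, a POU factor of the epiblast, had 373 counts (5.56 FPKM) in WT and 1350 (22.4 FPKM) in R255K. Otx2, which drives the exit from naive pluripotency, had 95 and 435 counts (1.61 and 8.19 FPKM), and Fgf15 had 146 and 569 counts (1.79). Dnmt3b, a de novo DNA methyltransferase, had 3847 counts (43.2 FPKM) and 8121 counts (102 FPKM), a ratio of 2.35. The other 5 were Sox3, Sall2, Zic2, Cdh2 and Lef1, between 1.14 and 1.51. Foxd3 (−0.25), Dnmt3a (−0.07), Tcf15 (0.15) and Zic5 (0.24) did not reach 2-fold, and Fgf5 was under the level limit at 18 and 36 counts. All 9 stayed above 0 in the 4 h and 8 h libraries, and 5 stayed past 2-fold.

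Core pluripotency factors differed little. None of 10 was called and the median was −0.15. Pou5f1, the central pluripotency factor, had 16974 counts (433 FPKM) in WT and 13537 (385 FPKM) in R255K (−0.17). Nanog had 8577 and 6100 counts (−0.33), and Sox2 8244 and 5864 (−0.33). Utf1 was the highest at 0.61 and Zfp281 the lowest at −0.83, so the range of these 10 stayed within 2-fold.

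**Figure D2:**
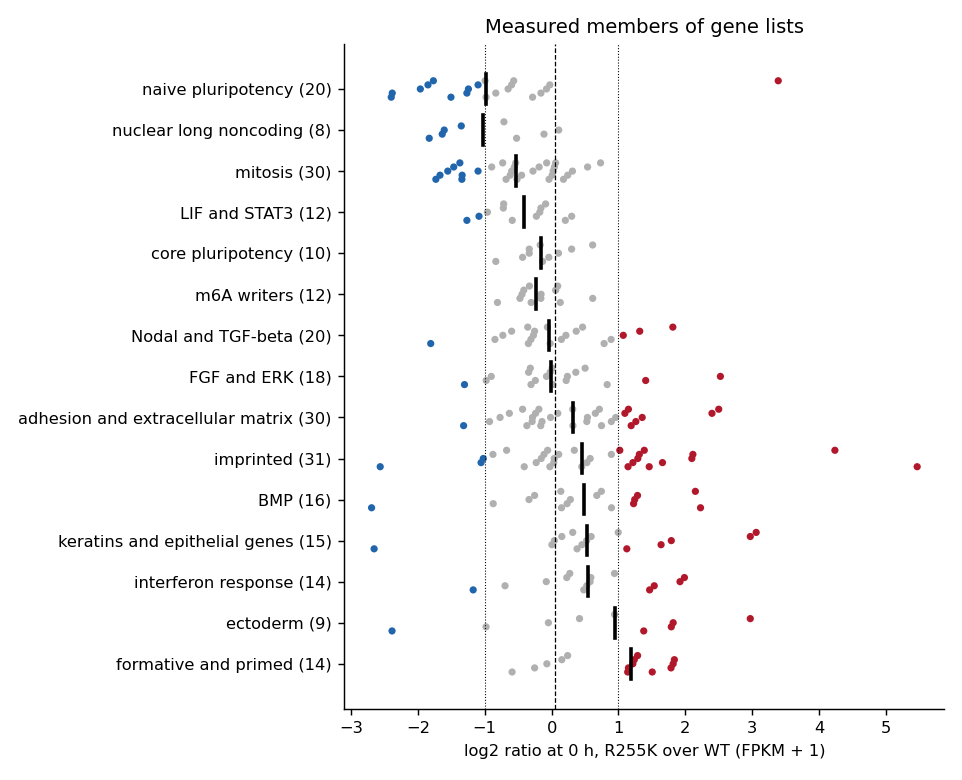
Log2 ratio of FPKM + 1 (R255K over WT at 0 h, horizontal axis) for the measured members of selected gene lists, 1 point per gene, with a bar at each list's median, dotted lines at 2-fold and a dashed line at 0.05, the median of all 11869 genes. Naive pluripotency genes sit mostly left of the dashed line (median −0.99) and formative genes right of it (median 1.18).

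Imprinted genes held some of the largest differences, in both directions. Of 43 listed 31 were measured; 12 (38.7%, against 6.44% of all genes) were higher, 4 of them under 1 FPKM in WT, and 3 (9.68%, against 5.92%) lower, with a median of 0.45. Beside H19 and Nnat, Peg10 (chr6:4747306-4760517), a retrotransposon-derived placental gene, had 3808 counts (32.8 FPKM) in WT and 15134 (145 FPKM) in R255K, a ratio of 4.43 (4.27 to 4.59). Dlk1, a Notch-like transmembrane protein, had 64 and 536 counts (2.10). Ndn had 194 and 674 counts (1.66), and Snrpn 896 and 2271 (1.46). Igf2, the growth factor that shares its imprinting control region with H19, had 106 and 393 counts (1.39), so both genes of the pair were higher in R255K. Tssc4, Phlda2, Peg12, Ascl2 and Mest lay between 1.02 and 1.31. Snrpn shares 34.1% of its exon length with other genes, among them Snurf on its own strand, and Mest 23.1% with Copg2 on the other, so reads of these cannot be assigned with certainty.

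The 3 lower imprinted genes were Grb10, Ube3a and Cdkn1c. Cdkn1c, a cyclin-dependent kinase inhibitor, had 1855 and 804 counts (−1.02) and was at −1.07 and −1.12 at 4 h and 8 h, with 30.7% of its exon length overlapped by an antisense gene model. Ube3a had 1419 and 446 counts (−1.05) in exons of 34.6% GC, was at −0.16 with the GC trend removed, and was above 0 at 4 h and 8 h. Of the clusters, the maternally expressed genes Meg3 (−0.11) and Rian (0.11) near Dlk1 were level, and Igf2r was at −0.15. All 12 higher genes were above 0 in the 3 pairs and 8 of them past 2-fold. Below the level limit, Plagl1 had 0 counts in WT and 159 in R255K, Peg13 had 0 and 77, and Magel2 had 5 and 117.

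Genes of the signalling pathways that hold or release the naive state varied within each pathway. In the BMP list of 22, 16 were measured, 5 were higher (31.3%, against 6.44% of all genes), 3 of them under 1 FPKM in WT, and Bmp4 alone was lower, with a median of 0.48. The ligand and its classical targets lay at opposite ends: Bmp4 was at −2.69 while Id3, a target that inhibits differentiation factors, had 582 counts (18.7 FPKM) in WT and 2548 (91.0 FPKM) in R255K, a ratio of 4.88 (4.46 to 5.35). Msx2 (27 and 284 counts, 2.15) and Msx1 (18 and 109, 1.29) are BMP-responsive homeobox genes. The inhibitory Smad6 had 79 and 233 counts (1.23), and the ligand Bmp8b 25 and 136 (1.24). Id1 (0.90) and Id2 (0.68) were on the same side without reaching 2-fold. Of the receptor and transducers, Bmpr1a was at −0.87, Smad1 at 0.14, Smad5 at −0.34 and Smad7, the other inhibitory SMAD, at −0.25.

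For Nodal and TGF-beta, 20 of 23 were measured, with a median of −0.04. Higher were 3 (15.0%, against 6.44% of all genes) and lower was 1 (5.0%, against 5.92%). The Nodal antagonists and targets Lefty1 (700 and 1607 counts, 1.32) and Lefty2 (707 and 1379, 1.07) were higher, with the ligand Nodal at 891 and 1402 counts (0.79) and its cofactor Foxh1 at 0.89. Inhbb, a subunit of activins and inhibins, was lower, with 2732 and 653 counts (−1.81). Receptors and SMADs ranged from −0.85 (Tgfbr1) to 0.15 (Smad3), and the ratios of Lefty1 were 2.47 and 2.36 at 4 h and 8 h.

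In the FGF and ERK list, 18 of 23 were measured, with a median of −0.01. Higher were 2 (11.1%, against 6.44% of all genes) and lower was 1 (5.56%, against 5.92%). Egr1, an immediate early transcription factor, had 130 counts (1.66 FPKM) in WT and 1004 (14.3 FPKM) in R255K, a ratio of 8.61 (7.16 to 10.4). The phosphatase Dusp5 was also higher (192 and 521 counts, 1.41), and Spred1, an inhibitor of the pathway, was lower (2846 and 973 counts, −1.30). The feedback inhibitors Dusp6 (−0.98) and Spry2 (−0.90) were below 0 without being called, while 9 of the 18 measured genes of the list were above 0. The kinase Mapk3 was level at 0.02.

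Of 12 measured LIF and STAT3 genes 2 (16.7%, against 5.92% of all genes) were called lower and none higher. Their median was −0.41 at 0 h, 0.16 at 4 h and 0.22 at 8 h. Lifr, the LIF receptor, had 2707 counts (15.0 FPKM) in WT and 916 (5.67 FPKM) in R255K (−1.27), and Socs2, a feedback inhibitor, 2082 and 802 (−1.09). The co-receptor Il6st was at −0.72, the target Socs3 at −0.59 and the kinase Pim3 at −0.96. At 4 h and 8 h the value for Lifr was 0.21 and 0.98, so its lower level was not seen in those libraries.

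For Wnt, 4 of 18 measured genes (22.2%, against 6.44% of all genes) were higher and 2 (11.1%, against 5.92%) lower. The list median of 0.12 was −0.10 without chromosome 11, which holds 5 of the measured genes, and −0.07 with the GC trend removed. The transcription factors Tcf7 (721 and 1766 counts, 1.39) and Lef1 (1.14), the Wnt target Sp5 (78 and 268 counts, 1.55) and the receptor Fzd2 (275 and 1115 counts, 1.95) were higher, of which Tcf7 and Fzd2 are on chromosome 11. The receptor Fzd5 (4435 and 1640 counts, −1.23) and Apc, of the destruction complex (1942 and 695 counts, −1.08), were lower. Ctnnb1, which encodes beta-catenin, had 14238 and 11898 counts (−0.10). For Notch and Hedgehog, the ligands Dll3 (50 and 308 counts, 1.98) and Jag2 (398 and 1018, 1.27) were higher and Notch4 (533 and 137 counts) and the effector Rbpj (−1.12) lower.

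Several epithelial and adhesion genes were higher. In the list of keratins and epithelial genes 15 were measured, 5 (33.3%, against 6.44% of all genes) were higher, 2 of them under 1 FPKM in WT, and 14 of 15 ratios were above 0. Krt8, the partner of Krt18, had 302 counts (9.60 FPKM) in WT and 1007 (35.7 FPKM) in R255K (1.79), which leaves Krt8, Krt18 and Krt19 all higher. Krt17 (0.15) and Krt42 (0.59) were not called, although both are on chromosome 11 as Krt19 is. The exception of the list was Lgals3, the only gene below 0. Of 30 measured adhesion and matrix genes, 7 (23.3%, against 6.44%) were higher, 2 of them under 1 FPKM in WT, and 1 lower (3.33%, against 5.92%). Of their ratios, 17 were above 0 and 13 below. Their median was 0.32, or 0.13 with the GC trend removed and 0.15 without the members on chromosome 11. Cdh1, E-cadherin, had 6274 counts (78.7 FPKM) and 12118 counts (169 FPKM), a log2 ratio of 1.10, and Epcam had 1256 and 2612 (1.19). The tight junction genes Cldn7 (29 and 289 counts, 2.50, on chromosome 11) and Cldn6 (103 and 588 counts, 2.40) had the largest ratios of that list. Nid1, of the basement membrane, was lower (3146 and 1070 counts, −1.32). All 12 higher genes of the 2 lists were above 0 in all 3 pairs.

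Lineage genes were mostly under the level limit, which bounds what their lists can show. Of 20 mesoderm genes 2 were measured, Snai1 (37 and 134 counts, 1.44) and Bmp4, with T, Hand1 (3 and 57 counts) and Wnt3 (4 and 85) below it. Of 23 endoderm genes 12 were measured, with a median of 0.21; Sparc, on chromosome 11, was higher (2811 and 6123 counts, 1.26), and the lipoprotein Apoe (14417 and 4270, −1.59) and Sox7 (211 and 39, −1.41) were lower. Of 20 ectoderm genes 9 were measured and 4 (44.4%, against 6.44% of all genes) were higher. Among them were Krt8, Krt18 and Otx2, already described, and the neural filament gene Nes (206 and 641 counts, 1.38). The neural factor Sox1, 1 of the 15 lowest genes, ran the other way, and Pax6 was level at −0.05. Of 22 fibroblast genes 6 were measured: Thbs1 was higher (16 and 271 counts, 1.74), Vim, an intermediate filament of mesenchymal cells that mESCs also express, lower (7020 and 2263, −1.45) and Fn1 at −0.01.

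Some trophoblast and germ line genes were higher. Of 14 trophoblast genes 5 were measured and 3 (60.0%, against 6.44% of all genes) were higher, Rhox6, Ascl2 and Rhox5. Of these, 1 had under 1 FPKM in WT. Rhox6 had 3 counts in WT and 76 in R255K (2.31), and of the X-linked Rhox homeobox cluster 4 of 42 listed genes were measured and called higher, 3 of which had under 1 FPKM in WT and passed the level limit through R255K alone. Of 20 germ line genes 13 were measured, with a median of 0.18. Higher were 5 (38.5%, against 6.44% of all genes), 1 of them under 1 FPKM in WT, and lower was 1 (7.69%, against 5.92%). The higher genes were Dppa3, Tex19.1, Rhox13 (8 and 53 counts, 1.68), Tuba3a (87 and 285, 1.60) and Tdrd12, of the piRNA pathway (162 and 472, 1.34). Meiotic and piRNA genes such as Ddx4 (0.09), Sycp3 (−0.29) and Piwil2 (0.05) did not share that difference. Hspb1, a small heat shock protein, was the lower gene, with 8785 and 3225 counts (−1.29).

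Of 18 regulators of DNA methylation 2 (11.1%, against 6.44% of all genes) were higher, Dnmt3b and Dppa3. Lower were 2 (11.1%, against 5.92%), Tet1 and Tet2, and the median was −0.09. Tet1 had 13946 counts (53.1 FPKM) in WT and 3147 (13.4 FPKM) in R255K (−1.92), Tet2 was 7.66-fold lower, and Tet3, at −0.53, was not called. The ratio of Tet1 was 0.19 at 4 h and 1.59 at 8 h. The maintenance enzymes Dnmt1 (−0.38) and Uhrf1 (−0.37) and the cofactor Dnmt3l (0.09) were within 2-fold. Of 26 Polycomb genes 3 were lower (11.5%, against 5.92% of all genes). These were Mtf2 (4324 and 1413 counts, −1.40), Eed (5748 and 2153, −1.24) and Rnf2 (2784 and 1055, −1.195). Chromatin remodellers had 5 lower (20.8%, against 5.92%) of 24 measured, from Chd2 at −1.44 to Chd9 at −1.11. Chd3, on chromosome 11, was higher at 1.02. Histone methyltransferases had 4 lower of 20, Kmt2c, Setd2, Nsd1 and Kmt2a.

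Long nuclear noncoding RNAs and mitotic genes also had low medians. Of 8 measured nuclear RNAs, 4 were lower and the median was −1.03, or −0.84 with the GC trend removed. Neat1, the scaffold of paraspeckles, had 1419 counts (3.92 FPKM) in WT and 125 (0.385 FPKM) in R255K (−1.83). Tug1 (1783 and 427 counts, −1.64), Mir17hg (607 and 142, −1.61) and Malat1 (1765 and 555, −1.35) were lower as well, and Meg3 and Rian, also on this list, were level. Of 30 mitotic genes, 8 (26.7%, against 5.92% of all genes) were lower, none higher, with a median of −0.53. These were Aspm (−1.73), Kif11, Kif20b, Knl1, Cenpf, Cenpe, Bub1 and Ttk (−1.10), spindle and kinetochore genes. With the GC trend removed the mitotic median was −0.31, and 0 of the 8 kept a negative ratio at both 4 h and 8 h. Zfp zinc finger genes, 280 measured, had 41 lower (14.6%, against 5.92% of all genes) and 3 higher (1.07%, against 6.44%). Their median was −0.36, and −0.16 with the GC trend removed. Their median GC content was 44.8%, against 49.9% for all genes.

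The lists of basal metabolism and protein synthesis had medians from −0.44 to 0.47. Across the 10 most abundant genes the log2 ratio ran from −0.54 (Ftl2-ps) to 0.32 (Eef2), and Eef1a1, a translation elongation factor, had 86571 counts (1992 FPKM) in WT and 77232 (1981 FPKM) in R255K. Processed pseudogenes such as Ftl2-ps and Gm8730 share sequence with their parent genes, so their counts are uncertain. Cytoplasmic ribosomal proteins, all 86 measured, had a median of 0.18 with 2 higher and 1 lower, and the nuclear respiratory chain genes 0.19 with 3 of 79 higher. Of 77 mitochondrial ribosomal protein genes, 9 were higher (11.7%, against 6.44% of all genes) and none lower. Their median was a little higher, at 0.47, and 11 of the 77 are on chromosome 11. The tRNA synthetases had the lowest median, −0.44 over 18 genes with none called, and were at −0.46 at 4 h and −0.64 at 8 h. Transcripts of the mitochondrial genome were at −0.37, and at 0.51 with the GC trend removed. Of 24, 4 were lower (16.7%, against 5.92% of all genes) and 1 higher. In glycolysis 1 of 23 was higher, the lactate transporter Slc16a3 on chromosome 11 (798 and 3601 counts, 2.204). Gapdh had 995 and 331 counts (−1.28) at 0 h but 1.195 at 4 h, and its many pseudogenes leave its count uncertain where only unique reads were kept.

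Stress and response genes differed in part. Among 14 measured interferon-response genes, 4 (28.6%, against 6.44% of all genes) were higher. These were the antigen-presenting H2-K1 (268 and 1074 counts, 1.99) and H2-D1 (215 and 604, 1.47), Oas1a (25 and 167, 1.92) and Irf1, on chromosome 11 (3.68 and 12.6 FPKM, 1.54). Ddx58, a sensor of viral RNA, was lower (−1.17). Of 17 immediate early genes 4 (23.5%, against 6.44% of all genes) were higher. These were Egr1, Ctgf (303 and 1587 counts, 2.37), Cyr61 (136 and 554, 1.93) and Jun (1.23). Ctgf and Cyr61 are also targets of YAP, and Yap1 itself was at 0.03. Of 24 integrated stress response genes 3 were lower (12.5%, against 5.92% of all genes). These were Chac1 (393 and 94 counts, −1.66), Trib3 (932 and 242, −1.66) and Nupr1 (−1.29), with Atf4, their activator, at −0.98. Of 25 p53 targets 3 (12%, against 6.44% of all genes) were higher, Perp (1.51), Phlda3 (1.03) and Cdkn1a (1.02), and in the unfolded protein response none of 18.

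In all, 66 gene lists were examined and 65 had a measured member. A list was said to stand apart where its median was at least 0.5 from that of all genes, which 13 did, 8 higher and 5 lower, and the medians of the other 52 lay between −0.44 and 0.52. Several of the 13 were small: protocadherins had 1 measured member (Pcdh1, 2.02), mesoderm 2, and collagens 6 with a median of 0.70 and Col9a2 (80 and 339 counts, 1.69) the only call. The 3 measured Y-linked genes of the list on X inactivation and Y, Eif2s3y, Ddx3y and Uty, lay between −0.67 and −0.32 and none was called.

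Chromosome 11 had the highest median of all chromosomes. Its 984 measured genes had a median log2 ratio of 0.53, with quartiles at 0.15 and 0.84 and 802 of the ratios above 0. At least 2-fold higher were 172 (17.5%, against 6.44% of all genes) and lower 20 (2.03%, against 5.92%). Outside chromosome 11, 592 of 10885 genes (5.44%) were higher and 683 lower, with a median of 0.01. The other autosomes had medians from −0.16 (chromosome 14) to 0.13 (chromosome 7), chromosome X was at −0.0011, and the 7 measured genes of chromosome Y were at −0.67. Chromosome 14 had the largest share of lower genes among autosomes, 53 of 425 (12.5%). The shift ran along the whole chromosome: 20-Mb bins had medians from 0.20 to 0.70, the lowest in the bin from 20 to 40 Mb, and at 4 h from 0.53 to 0.62. That bin had a median GC content of 43.9%, against 49.9% to 55.7% in the others, and was at 0.59 at 4 h. The shift was present in each of 5 groups of equal size by GC content. There chromosome 11 exceeded the other genes of the same group by 0.40, 0.44, 0.43, 0.52 and 0.46. The chromosome median was 0.58 at 4 h and 0.71 at 8 h. Of its 5 most abundant genes, Eif5a (0.66), Actg1 (0.61) and Ubb (0.47) were above the median of all genes, as was Rpl19 (0.17), and Npm1, with 28606 and 19055 counts, was at −0.43. DNA copy number was not measured in these files.

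**Figure D3:**
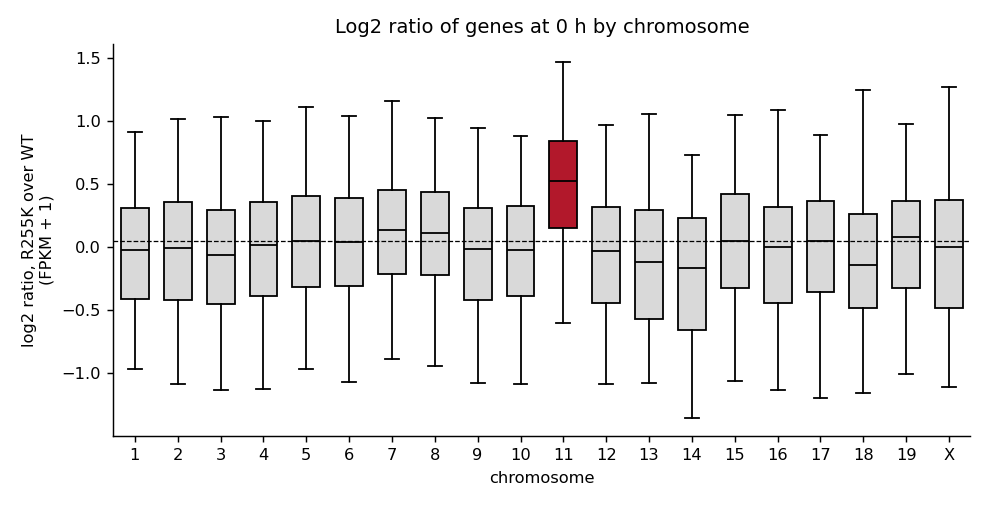
Log2 ratio of FPKM + 1 (R255K over WT at 0 h, vertical axis) of the measured genes of each chromosome (horizontal axis), as boxes of the quartiles with the median and whiskers to the 5th and 95th percentiles, and a dashed line at 0.05, the median of all genes. Chromosome 11 has a median of 0.53, and those of the other autosomes lie between −0.16 and 0.13.

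Exon GC content went with the ratio across the transcriptome. In 5 groups of equal size by GC content, from a median of 41.6% to one of 57.9%, the median log2 ratios were −0.42, −0.05, 0.13, 0.20 and 0.30. Genes called higher made up 1.35% of the most AT-rich group and 11.6% of the most GC-rich, and genes called lower 14.7% and 2.95%. The median GC content was 53.7% for the 764 genes called higher and 44.1% for the 703 called lower, and their median exon lengths were 2348 and 4635 bases. In the 4 h libraries the groups lay between 0.14 and 0.21 and in the 8 h libraries between 0.30 and 0.41 and did not follow GC content in order. Once a smooth trend on GC content was removed, 542 of the 764 and 389 of the 703 were still past 2-fold. Exon length went with the ratio too. In 5 groups of equal size by exon length, from short to long, the medians were 0.20, 0.20, 0.08, −0.01 and −0.24. With the GC trend removed they were 0.15, 0.13, 0.07, 0.01 and −0.11. Values with the GC trend removed thus still hold a trend on exon length. The part of library preparation in these gradients was not tested.

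**Figure D4:**
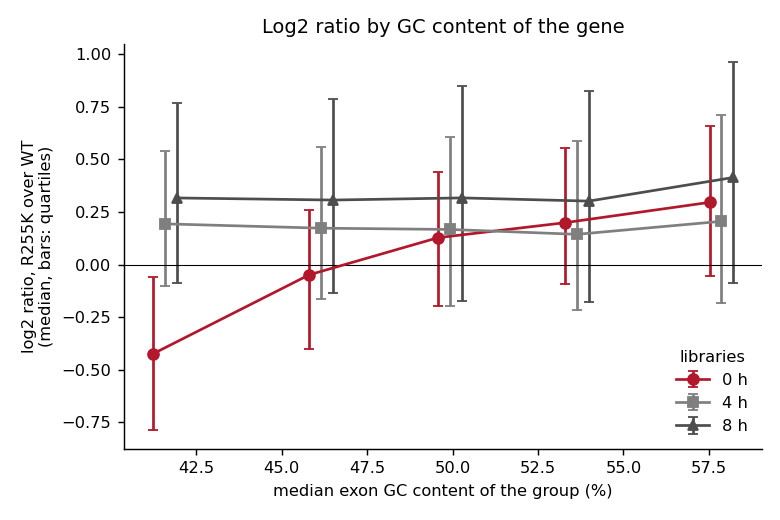
Median log2 ratio of FPKM + 1 (R255K over WT, vertical axis, bars from the lower to the upper quartile) in 5 equal groups by exon GC content (horizontal axis) for the pairs of libraries at 0 h, 4 h and 8 h. Medians at 0 h go from −0.42 in the most AT-rich group to 0.30 in the most GC-rich, while at 4 h they stay between 0.14 and 0.21.

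Genes were also grouped by the deposited m6A peaks. Of genes with a WT peak that no R255K peak overlapped (3762), 178 (4.73%, against 6.44% of all genes) were higher and 288 (7.66%, against 5.92%) lower, and the median was −0.03. Of genes whose WT peaks were all overlapped in R255K (3045), 189 (6.21%) were higher and 147 (4.83%) lower, with a median of 0.08. Of genes with no WT peak (5062), 397 (7.84%) were higher and 268 (5.29%) lower, with a median of 0.09. With the GC trend removed the 3 medians were −0.0183, 0.0355 and 0.10. The part of exon length in these counts was not tested.

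Later libraries of the same lines give the same ratio in other pairs of libraries, each again 1 per genotype, on RNA left after hours of blocked transcription. Of the 764 genes called higher, 737 had a ratio above 0 at both 4 h and 8 h and 460 were past 2-fold in all 3 pairs, with medians of 1.28, 1.22 and 1.31. Of the 703 called lower, 344 were below 0 at both times and 107 past 2-fold in all 3, with medians of −1.26, −0.32 and −0.02. The median of all genes was 0.18 at 4 h and 0.33 at 8 h, which moves the later pairs upwards as a whole, and all libraries were scaled to their own total. Among all 11869 genes, 1284 were at least 2-fold higher and 256 at least 2-fold lower at 4 h, and 2258 and 292 at 8 h. How many calls of each direction recurred is to be read against these counts. The 3 pairs share no library.

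**Figure D5:**
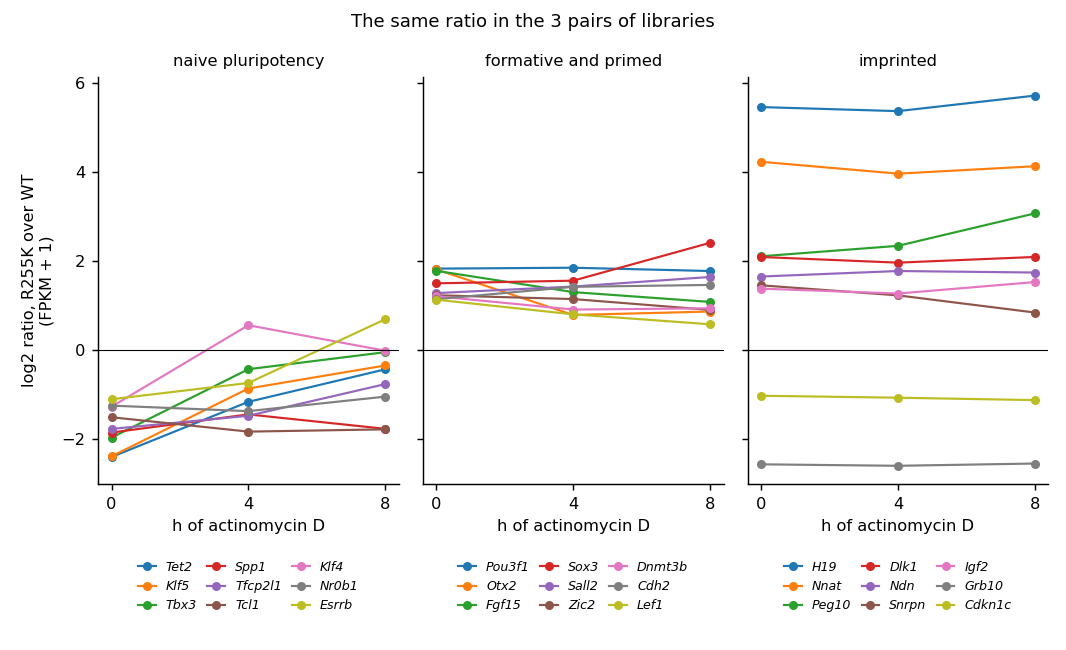
Log2 ratio of FPKM + 1 (R255K over WT, vertical axis) at 0 h, 4 h and 8 h of actinomycin D (horizontal axis) for 9 naive, 9 formative and 9 imprinted genes, with lines that join separate libraries, 1 per genotype and time. H19, Nnat and Peg10 stay above 2 at the 3 times and Grb10 stays between −2.60 and −2.54, while Klf5 goes from −2.38 to −0.34 and Esrrb from −1.10 to 0.70.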

How the data were processed

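Reads matching rRNA were discarded by the authors with Bowtie2 (2.2.6). HISAT2 placed the others on mm10, and those mapping uniquely were kept with Picard (2.16.0) and SAMtools (0.1.09). They deposited read counts per gene in a table per genotype, with exon lengths. The counting tool, its annotation and its strand setting are not given in the sources used here. m6A peaks were called with MACS2, and the deposited lists give fold enrichment over input; their positions alone were used here.

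FPKM was computed from the deposited counts, exon lengths and summed counts, and ratios as log2(FPKM + 1) (pandas 2.3.3, scipy 1.17.1). Genes with mean FPKM of at least 1 entered. GC content was taken over merged mm10 exons, and a lowess trend (span 0.3, statsmodels 0.14.6) was removed as an alternative. Other alternatives were TMM (edgeR 4.0.16), size factors of DESeq2 (1.42.0), pseudocount 0.1, a minimum FPKM of 5 or none, coding genes alone, and chromosome 11 left out. No test was run, since each genotype has 1 library; the calculation was checked on simulated data. Of the 52459 genes, 48073 matched GENCODE vM21 by symbol and position, for biotypes. Named were Mettl14, the 15 highest and 15 lowest genes, the 10 most abundant, the 5 most abundant of chromosome 11, up to 4 members past 2-fold per list, and the members of the pluripotency, m6A, signalling and germ layer lists. Other genes named were chosen after their values were seen, and some genes that this rule names are not reported here. The gene lists and members were chosen with earlier results of these data known.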

Additional observations from a re-analysis of the deposited data

Results flagged for a closer look

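For 8 genes of the lists, the ratio at 0 h was past 2-fold in one direction and those at 4 h and 8 h were both at least 0.5 in the other. The difference between times was not tested, with 1 library per genotype and time. Values are log2 ratios of FPKM + 1, R255K over WT. Cenpe and Cenpf, kinetochore genes, were at −1.34 and −1.37 at 0 h. At 4 h they were at 1.59 and 1.14, and at 8 h at 1.08 and 0.74. The chromatin genes Atrx, Chd9 and Setd2 were at −1.24, −1.11 and −1.15 at 0 h. At 4 h Atrx was at 1.23, Chd9 at 0.96 and Setd2 at 1.10, and at 8 h at 0.54, 1.41 and 1.98. Apc, of the Wnt destruction complex, was at −1.08 at 0 h, 0.71 at 4 h and 1.43 at 8 h. Usp34, a ubiquitin-specific protease, was at −1.08, 0.98 and 2.24. Trib3, a pseudokinase of the stress response, was at −1.66, 0.92 and 1.16. In each of the 8 genes the WT library was the higher at 0 h and the R255K library the higher at both later times.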

How the results depend on the processing

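No paired analysis was possible because each genotype has 1 library at each time, and no replicate could be left out. The median of all genes (0.05) was −0.0277 with TMM factors and −0.0743 with DESeq2 size factors, 0.0783 at mean FPKM of at least 5, 0.0250 with no filter and 0.0132 without chromosome 11. Genes higher and lower (764 and 703) were 632 and 846 with TMM factors, 578 and 935 with DESeq2 size factors, 663 and 500 with the GC trend removed, and 366 and 410 at FPKM of at least 5. With pseudocount 0.1, 1144 were higher and 1136 lower. The excess of chromosome 11 over other genes (0.51) was 0.56 with pseudocount 0.1, 0.22 with no filter and 0.45 with the GC trend removed. The difference between the most GC-rich and most AT-rich groups of 5 (0.72) was 0.84 with pseudocount 0.1, 0.67 at FPKM of at least 5 and 0.26 with no filter. Removing the GC trend and leaving out chromosome 11 together, an alternative chosen after seeing the data, gave 542 higher, 483 lower and a median of 0.0160.

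Of 13 lists that stood apart, 12 still did with TMM factors, 12 with DESeq2 size factors, 13 with pseudocount 0.1, 10 of 12 at FPKM of at least 5, 6 with no filter, 8 with the GC trend removed, 12 without chromosome 11 and 11 of 12 among coding genes. Among the 13, these turned direction: fibroblast genes were at −0.73 at FPKM of at least 5, mesoderm genes at 0.39 and protocadherins at −0.0123 with no filter, and the X inactivation and Y list at 0.38 with the GC trend removed, with or without chromosome 11. Of the other lists, the mitochondrial genome turned from −0.37 to 0.51, splicing factors from −0.23 to 0.0562 and m6A writers from −0.23 to 0.0434 with the GC trend removed, and several lists near 0 changed sign with scaling. Protocadherins were at 1.96 with TMM factors, 1.92 with DESeq2 size factors, 2.69 with pseudocount 0.1 and 1.76 with the GC trend removed. The Rhox cluster was at 2.34 with pseudocount 0.1, and collagens were at 0.11 with no filter and 0.44 with the GC trend removed. Lists without a filter include members near 0 reads; the cause of the other shifts was not tested. Depth limits genes under 10 counts in 1 library.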

Other observations

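Cell cycle regulators differed by member. Of 26 measured cyclins, cyclin-dependent kinases and inhibitors, 2 (7.69%, against 6.44% of all genes) were higher and 3 (11.5%, against 5.92%) lower. Their median was −0.22 at 0 h, −0.13 at 4 h and 0.0054 at 8 h. Ccnd2, a D-type cyclin, had 189 counts (1.15 FPKM) in WT and 1162 (7.90 FPKM) in R255K, a log2 ratio of 2.05. Ccnd3, another D-type cyclin, had 6280 and 2589 counts (−1.08). The inhibitors split as well, with Cdkn1b at 1030 and 264 counts (−1.57) and Cdkn1a at 270 and 527 (1.02). Heat shock genes had a median near that of all genes (0.07), yet Hsp90aa1, a stress-inducible chaperone, had 51180 and 17657 counts (−1.38) and its cofactor Bag3 319 and 879 (1.49). At 4 h and 8 h Hsp90aa1 was at −0.25 and −0.44.

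Of 19 measured hypoxia genes 3 were lower (15.8%, against 5.92% of all genes). These were the growth factor Vegfa (340 and 74 counts, −1.40), the demethylase Kdm3a (−1.27) and the kinase Pdk1 (−1.02). Egln3 was higher (1.07). Lysosome and autophagy genes split evenly, with 3 higher (12.5%, against 6.44% of all genes) and 3 lower (12.5%, against 5.92%) of 24. Among the lower genes were Tfeb, a regulator of lysosome genes (1506 and 464 counts, −1.38), and the lysosomal enzyme gene Hexa (1219 and 347, −1.57). The higher genes were Sqstm1, Ctsd and Map1lc3a, between 1.04 and 1.07. Grouped by the letters of their symbols, 114 families were examined and 2 stood apart, both lower. The Klf factors had a median of −0.62 over 13 genes, with 5 lower (38.5%, against 5.92% of all genes) and Klf6 (0.03) and Klf16 (0.52) above 0, but 0.45 at 4 h and 0.48 at 8 h. The exocyst genes had a median of −0.51 over 10 genes with 2 lower, and −0.09 with the GC trend removed.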
